A study of Spodoptera exigua with 2 samples.

Results

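Eicosanoids are oxygenated fatty acids that act as immune mediators in insects. Phospholipase A2 (PLA2) frees arachidonic acid from membrane phospholipids, and separate branches turn it into prostaglandins, leukotrienes and epoxyeicosatrienoic acids (EETs). The 5 genes described here encode enzymes of these branches downstream of PLA2 and were taken by locus number, as members of the pathway, from the 13002 genes of the deposited matrices. They are PGES (SPEXI_LOCUS12645), the synthase of prostaglandin PGE2; PGIS (SPEXI_LOCUS427), the synthase of prostacyclin (PGI2); the LTA4 hydrolase (SPEXI_LOCUS5718), which in vertebrates converts leukotriene LTA4 to LTB4; and SPEXI_LOCUS11237 and SPEXI_LOCUS11236, which belong to the epoxidases of EET synthesis (EPX). PGE2 is known to mediate cellular and humoral responses of lepidopteran hemocytes, including their spreading and the release of prophenoloxidase (PPO), the melanization enzyme, from oenocytoids. The EPX loci are called by number, because they were not paired with the numbered EPX names of the study.

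The study described the hemocytes (blood cells) of Spodoptera exigua, the beet armyworm, by single-cell RNA sequencing. Newly molted fifth-instar larvae received PBS (naive) or 140000 heat-killed Escherichia coli TOP10 cells per larva (challenged), and hemolymph was pooled from the larvae of each condition 8 h later. Each condition gave 1 droplet library that captures the 3′ end of mRNA. The conditions could therefore not be compared by a test, and a difference between the libraries cannot be told apart from a difference between the 2 pools or preparations.

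The libraries kept 14840 naive and 12524 challenged cells with medians of 3347 and 5282 unique molecular identifiers (UMIs) per cell, and sums of 81236890 and 94496277 UMIs. Levels are counts per 1000000 UMIs (CPM) over the cells concerned. All intervals are exact, at 95%, and cover counting error only. Scrublet called 432 naive and 194 challenged cells as doublets, 2.91% and 1.55% against 11.9% and 10.0% expected, so doublets can remain, and 44 cell barcodes occurred in both libraries. The cells formed 33 clusters, and hemocyte genes such as the PPO gene SPEXI_LOCUS6221 stood at 4269 CPM in the naive and 5992 CPM in the challenged library. The 3 muscle genes examined, of a tissue the hemolymph could carry, ranged from 20.8 to 65.2 CPM in the naive and from 7.44 to 38.5 CPM in the challenged library, and their part in the levels of the enzymes was not tested. Clusters are called by number and by the marker genes they held at high level, since several had none. The numbers come from the clustering made here and are not the cluster numbers of the study.

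At the level of whole libraries, the challenged level was lower for PGES, the LTA4 hydrolase and EPX SPEXI_LOCUS11236 and higher for EPX SPEXI_LOCUS11237, beyond counting error. The leading clusters were shared by some steps and differed for others. By level, PGES was highest in the shallow cluster 0, and PGIS and EPX SPEXI_LOCUS11236 in the shallow cluster 17. Neither cluster had a marker group, and cluster 17 held few challenged UMIs of these genes. The LTA4 hydrolase was detected in every cluster examined, and EPX SPEXI_LOCUS11237 was concentrated in the deep cluster 6 of the challenged library. Cluster 6 also held the most challenged UMIs of PGES and of the LTA4 hydrolase.

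PGES held 861 UMIs in the naive library, a level of 10.6 CPM (interval 9.90 to 11.3). In the challenged library it held 828 UMIs, a level of 8.76 CPM (8.18 to 9.38). The ratio of the challenged to the naive level was 0.827 (0.751 to 0.911), so the lower challenged level exceeded counting error. PGIS held 206 UMIs (2.54 CPM, 2.20 to 2.91) in the naive and 203 UMIs (2.15 CPM, 1.86 to 2.46) in the challenged library. Its ratio of 0.847 had an interval of 0.694 to 1.03, so no difference in the prostacyclin branch was detectable at this depth.

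The LTA4 hydrolase, the leukotriene step, held 3950 UMIs in the naive library (48.6 CPM, 47.1 to 50.2) and 3632 in the challenged library (38.4 CPM, 37.2 to 39.7). Its ratio was 0.790 (0.755 to 0.827), below 1 beyond counting error. Levels were not ranked between genes, because how well each transcript is captured was not measured here. Where UMIs of different genes are summed below, their shares are compared between clusters or libraries only.

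The EET step showed opposite differences at its 2 loci. EPX SPEXI_LOCUS11237 held 281 UMIs (3.46 CPM, 3.07 to 3.89) in the naive and 462 UMIs (4.89 CPM, 4.45 to 5.36) in the challenged library, so that the ratio was 1.41 (1.22 to 1.65). EPX SPEXI_LOCUS11236 held 196 UMIs (2.41 CPM, 2.09 to 2.78) in the naive and 107 UMIs (1.13 CPM, 0.928 to 1.37) in the challenged library. Its ratio of 0.469 (0.367 to 0.597) was a 2.13-fold lower level in the challenged cells. With the cell shares of the clusters made equal in both libraries the log2 ratio of this gene was -0.31, in place of -1.09. The 2 loci are adjacent by number, and whether reads were shared between them was not tested. The next numbers on either side held few or no UMIs, with 0 in both libraries for SPEXI_LOCUS11235 and with 21 and 27 for SPEXI_LOCUS11238.

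**Figure D1:**
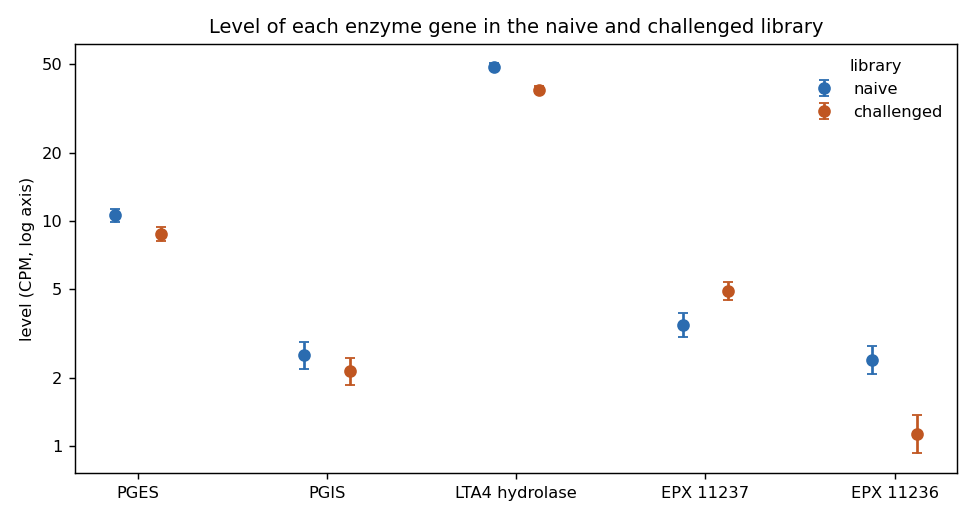
Level of each gene in CPM (UMIs per 1000000, log axis) in the naive and the challenged library, with exact 95% Poisson intervals of 1 library each. The intervals of the 2 libraries overlap for PGIS, the challenged point lies below the naive one for PGES, the LTA4 hydrolase and EPX SPEXI_LOCUS11236, and it lies above for EPX SPEXI_LOCUS11237.

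Ratios as low as those of PGES, PGIS and the LTA4 hydrolase were common among the genes measured. Lower ratios were held by 25.2%, 27.8% and 21.2% of genes, respectively. The ratios of the 2 EPX loci were less common. Of 8441 genes with at least 100 UMIs over both libraries, 11.8% were lower in the challenged library by over 1.5-fold and 5.79% by over 2-fold, and of the 5 members EPX SPEXI_LOCUS11236 was past both. A level higher by over 1.5-fold was found for 6.65% of genes and by over 2-fold for 2.61%, and 0 of the 5 members were past either. The counting interval of the ratio lay below 1 for 37.3% of genes and for 3 of the 5 members, and above 1 for 35.5% of genes and for 1 of the 5 members. With 5 members, these counts were not read as a result about the pathway. A lower ratio than that of EPX SPEXI_LOCUS11236 was held by 5.01% of the genes, and a lower ratio than that of EPX SPEXI_LOCUS11237 by 91.5%. The median ratio over all these genes was 0.992.

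Most cells with a transcript of these enzymes held a single UMI of it. PGES was detected in 779 naive cells (5.25%, 4.90 to 5.62) and 739 challenged cells (5.90%, 5.49 to 6.33), and the LTA4 hydrolase in 2887 (19.5%, 18.8 to 20.1) and 2588 cells (20.7%, 19.96 to 21.4). PGIS was detected in 190 (1.28%) and 185 cells (1.48%), EPX SPEXI_LOCUS11237 in 217 (1.46%) and 302 cells (2.41%), and EPX SPEXI_LOCUS11236 in 184 (1.24%) and 104 cells (0.830%). These shares depend on depth, and cells with PGES had a median of 7088 UMIs in the naive library against 3230 for cells without it. Over the 5 genes and both libraries, between 72.6% and 97.1% of positive cells held 1 UMI of the gene, and no cell held more than 10.

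At an equal depth of 1000 UMIs per cell, which left 12157 naive and 11458 challenged cells, the share of PGES-positive cells was 1.51% (1.30 to 1.74) in the naive and 0.812% (0.656 to 0.993) in the challenged library. The direction was thus the reverse of that of the shares before thinning. Thinning left 812 of 2179 naive and 327 of 619 challenged cells of cluster 0, where PGES was highest. These gave 66 of the 183 naive and 18 of the 93 challenged PGES-positive cells, and their part in the difference was not tested. Averaged over all possible draws of 1000 UMIs, the PGES shares were 1.31% and 0.882%. At 2000 UMIs per cell they were 1.72% (1.47 to 2.01) and 1.49% (1.25 to 1.75), and the intervals overlapped. The LTA4 hydrolase, whose shares before thinning were also slightly higher in the challenged cells, had thinned shares of 5.01% (4.63 to 5.41) and 3.65% (3.31 to 4.01). EPX SPEXI_LOCUS11236 had thinned shares of 0.288% (0.201 to 0.400) and 0.131% (0.0733 to 0.216). For PGIS, with 0.321% and 0.314%, and EPX SPEXI_LOCUS11237, with 0.247% and 0.323%, the intervals of the thinned shares overlapped widely.

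Each library had 27 clusters with at least 50 of its cells, 23 of them shared by both libraries, and the cluster levels were read in these. The members were kept out of the genes used for clustering. The marker groups were the PPO genes (cluster 5), SPARC genes with hemocytin, SPEXI_LOCUS10914 (clusters 3, 7, 8, 11, 14 and 23), cathepsin genes (clusters 1, 4, 12 and 18), hemicentin genes (cluster 22), a calphotin-like group (cluster 29), a muscle group (cluster 32), and the genes SPEXI_LOCUS5543 and SPEXI_LOCUS5542 for unnamed proteins (clusters 10 and 21). The remaining clusters, including 0, 2, 6, 9 and 17, were assigned to no group.

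PGES, the PGE2 synthase, was highest in cluster 0, with 79.9 CPM (69.0 to 92.0) from 192 UMIs in the naive and 70.0 CPM (53.6 to 90.0) from 61 UMIs in the challenged library. In cluster 17 its level was 58.5 CPM (39.5 to 83.5) in the naive library and 59.2 CPM from only 4 UMIs in the challenged library. The median level over clusters was 8.35 CPM in the naive and 8.48 CPM in the challenged library, so that these 2 clusters stood several fold above the median in both. They were shallow, with naive medians of 851 and 892 UMIs per cell, and were much smaller in the challenged library. Cluster 0 made up 14.7% of naive and 4.94% of challenged cells, and cluster 17 made up 3.07% and 0.431%. Another shallow cluster, 26, with a naive median of 945 UMIs, was also high in the naive library. It held 6 PGES UMIs in 140 naive cells (40.5 CPM, 14.8 to 88.1) and 1 UMI in 93 challenged cells (11.5 CPM). In cluster 0 the genes SPEXI_LOCUS5543 and SPEXI_LOCUS5542 for unnamed proteins were high, by log2 differences of 3.86 and 3.62 over all cells, and the 2 ribosomal genes examined were lower, by log2 differences of -0.65 and -1.26. The part of the low depth in the PGES level there was not tested.

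The lower PGES level of the challenged library was not found without clusters 0 and 17. The level was then 8.16 CPM in both libraries, and the ratio was 1.00 (0.899 to 1.11). These clusters were left out after their levels were seen. They were high in PGES and smaller in the challenged library, so leaving them out was bound to raise the ratio, and no cause was tested. With the same weight for each cell, where shallow cells count as much as deep ones, the log2 ratio over all clusters was -0.87 in place of -0.27. Within clusters, 16 held at least 10 PGES UMIs, and in none of them did the interval of the ratio lie away from 1. The ratio was 0.877 (0.646 to 1.18) in cluster 0, 0.962 (0.734 to 1.25) in cluster 2 and 1.02 (0.812 to 1.29) in cluster 6.

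At moderate level PGES was also present in deep clusters, with 9.87 and 10.1 CPM in cluster 6 and 13.3 and 14.5 CPM in cluster 21, in the naive and challenged libraries respectively. In the PPO cluster 5, whose markers are those of oenocytoids, it stood at 3.58 CPM (2.38 to 5.17) in the naive and 5.22 CPM (3.97 to 6.73) in the challenged library. PGES had 0 UMIs in 2 naive clusters, cluster 20 with 285 cells (floor of 3 UMIs at 3.40 CPM) and the calphotin-like cluster 29 with 95 cells (floor at 15.9 CPM). In the challenged library cluster 20 held 2 UMIs in 87 cells (8.48 CPM). Low levels were also found in cluster 19, with 1.49 CPM in the naive and 1.63 CPM in the challenged library. SPARC cluster 11 had 1.80 and 1.26 CPM, and the challenged levels of clusters 19 and 11 came from 1 UMI each. The cluster with most PGES UMIs was cluster 0 in the naive library (22.3%) and cluster 6 in the challenged library (22.7%).

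PGIS, the prostacyclin synthase, was also highest in the shallow clusters. Cluster 17 held 26 UMIs in 455 naive cells (50.7 CPM, 33.1 to 74.3) and 3 UMIs in 54 challenged cells (44.4 CPM, 9.15 to 130). Cluster 0 held 47 UMIs (19.6 CPM, 14.4 to 26.0) in the naive and 9 UMIs (10.3 CPM, 4.72 to 19.6) in the challenged library. The median over clusters was 0.948 and 1.44 CPM, and PGIS had 0 UMIs in 9 of the 27 naive and 5 of the 27 challenged clusters. In cluster 19, with 351 naive and 54 challenged cells at a median depth of 7778 and 9212 UMIs, no PGIS UMI was found.

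Beyond the shallow clusters, the cathepsin cluster 4 also stood over 2-fold above the PGIS level of each library, with 9 UMIs in 587 naive cells (8.21 CPM, 3.75 to 15.6) and 18 UMIs in 1279 challenged cells (5.99 CPM, 3.55 to 9.47). Its ratio was 0.731 (0.312 to 1.85), so no difference was detectable there. In the PPO cluster 5 and the SPARC cluster 7, however, the libraries differed in opposite directions. In cluster 5 it held 45 UMIs in 763 naive cells (5.75 CPM, 4.19 to 7.69) and 31 UMIs in 901 challenged cells (2.74 CPM, 1.86 to 3.89). The ratio was 0.477 (0.292 to 0.771). In cluster 7 it held 13 UMIs in 612 naive cells (3.496 CPM, 1.86 to 5.98) and 52 UMIs in 744 challenged cells (9.66 CPM, 7.21 to 12.7). The ratio was 2.76 (1.48 to 5.53), and the 52 UMIs came from 48 cells. Among genes with at least 20 UMIs in the cluster, 1.94% had a lower ratio than PGIS in cluster 5 and 1.82% a higher ratio than PGIS in cluster 7. Neither ratio changed direction without the called doublets, with 0.474 in cluster 5 and 2.83 in cluster 7.

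These clusters held much of the PGIS signal. Cluster 5 took 21.8% of the naive UMIs of the gene and cluster 7 took 25.6% of the challenged UMIs. The direction of cluster 7 was not that of all SPARC clusters. In SPARC cluster 8, PGIS held 3 UMIs in 121 naive cells (3.15 CPM, 0.650 to 9.21) and 8 UMIs in 1167 challenged cells (0.736 CPM, 0.318 to 1.45), and the ratio was 0.234 (0.0560 to 1.37). In the hemicentin cluster 22, PGIS had 0 UMIs in 172 naive cells and 8 UMIs in 155 challenged cells, for which the naive floor of 3 UMIs was 7.30 CPM and the challenged level 18.2 CPM (7.85 to 35.8). Without clusters 0 and 17, a setting chosen after the levels were seen, the ratio of the whole libraries was 1.202 (0.958 to 1.51).

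**Figure D2:**
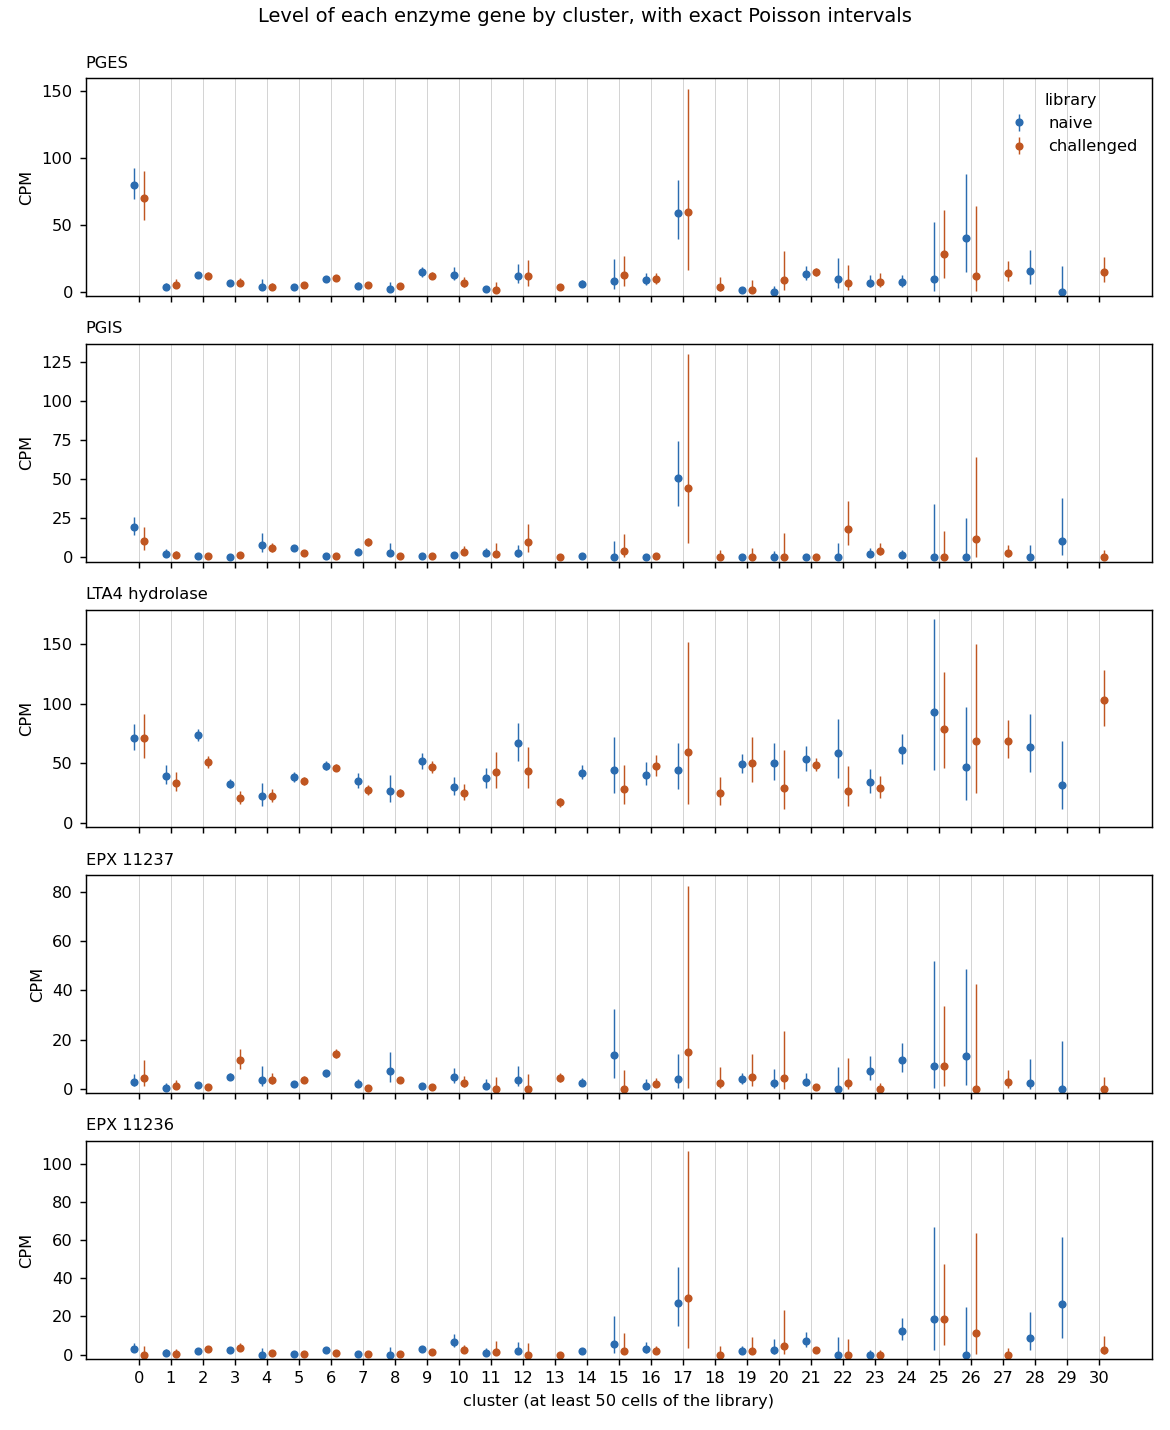
Level of each gene (CPM) by cluster, where at least 50 cells of the library lay in it, with 1 panel per gene, a point for each library and exact 95% Poisson intervals. PGES and PGIS stand highest in clusters 0 and 17, and the LTA4 hydrolase is spread over all clusters. EPX SPEXI_LOCUS11237 reaches 14.2 CPM in cluster 6 of the challenged library.

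The LTA4 hydrolase was detected in all 27 clusters of each library, with at least 3 UMIs in each. In the naive library its level ranged from 22.8 CPM (14.8 to 33.6) in the cathepsin cluster 4 to 92.7 CPM (44.5 to 171) in cluster 25, around a median of 44.9 CPM. In the challenged library it ranged from 17.3 CPM (13.9 to 21.3) in cluster 13, which held challenged cells only, to 103 CPM (81.2 to 128) in cluster 30, around a median of 42.8 CPM. No cluster lacking the gene was found, so the share of its UMIs that comes from free RNA was not tested. PGES made up 52.7% (47.5 to 58.0) of the summed PGES and LTA4 hydrolase UMIs in cluster 0 of naive cells and 8.48% (5.71 to 12.03) in the PPO cluster 5, so the 2 genes were not in 1 ratio over the cells.

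The lower challenged level of the LTA4 hydrolase recurred within clusters. Of the 23 clusters, 18 had a ratio below 1 and 5 above 1, with a median of 0.908. The interval lay below 1 in 4 clusters and above 1 in none. Cluster 2 held the most UMIs of the gene in the naive library, with 949 UMIs in 1318 naive cells (73.6 CPM, 69.0 to 78.4) and 376 UMIs in 679 challenged cells (51.1 CPM, 46.1 to 56.5). Its ratio was 0.694 (0.614 to 0.783), a size at or below which 10.6% of the genes in that cluster lay.

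The other 3 clusters were SPARC clusters 3 and 7 and the hemicentin cluster 22. In cluster 3 the level was 33.1 CPM in the naive and 21.1 CPM in the challenged library, and the ratio was 0.639 (0.479 to 0.842). In cluster 7 the ratio was 0.780 (0.613 to 0.995) and in cluster 22 it was 0.467 (0.213 to 0.971). In the PPO cluster 5 the levels were 38.6 and 35.0 CPM (ratio 0.909, 0.780 to 1.06), and in cluster 6 they were 48.0 and 46.3 CPM (0.965, 0.869 to 1.07), so no difference was detectable in these deep clusters.

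Cluster 6 held more UMIs of EPX SPEXI_LOCUS11237 than any other cluster in each library, although in the naive library its level was higher elsewhere. The naive level was 11.7 CPM (6.95 to 18.5) in cluster 24, from 18 UMIs, and 13.9 CPM (4.52 to 32.5) in cluster 15, from 5 UMIs. In cluster 6 it held 79 UMIs in 676 naive cells (6.24 CPM, 4.94 to 7.78) and 265 UMIs in 704 challenged cells (14.2 CPM, 12.6 to 16.1). The ratio was 2.28 (1.77 to 2.97), and 2.84% of the genes in the cluster had a higher ratio. Cluster 6 took 28.1% of the UMIs of the gene in the naive library and 57.4% in the challenged library, while it held 15.6% and 19.7% of all UMIs.

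Cluster 6 was deep, with medians of 18431 and 25124 UMIs per cell, and 5.65% of its cells were called doublets. It was lower than all cells in each PPO, cathepsin, SPARC, hemicentin, calphotin-like and muscle marker. It was higher in both ribosomal genes, by log2 differences of 0.56 and 0.65. The other marker genes examined are not described here, and no marker group met the rule for naming this cluster. The transcript was held by 49 naive (7.25%, 5.41 to 9.47) and 133 challenged cells (18.9%, 16.1 to 22.0). Cells with 3 or more UMIs numbered 6 in the naive and 29 in the challenged cluster, of 12 and 36 in the whole libraries. At 1000 UMIs per cell the shares were 0.741% (0.241 to 1.72) and 1.99% (1.09 to 3.31). For comparison, in cluster 9, at medians of 6940 and 9524 UMIs, 3 of 528 naive cells (0.568%) and 3 of 759 challenged cells (0.395%) held a UMI.

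The ratio of EPX SPEXI_LOCUS11237 in cluster 6 was 2.09 (1.61 to 2.74) without called doublets and 1.70 (1.23 to 2.38) over the cells with under 3 UMIs of the gene. Without cluster 6 the whole libraries stood at 2.95 CPM in the naive and 2.60 CPM in the challenged cells, a ratio of 0.881 (0.721 to 1.08). The higher challenged level was thus not found without this cluster. This setting was chosen after the levels were seen. Cluster 6 had a higher ratio than the whole libraries, so leaving it out was bound to lower the ratio. Outside it, the SPARC cluster 3 had 4.81 CPM in the naive and 11.7 CPM in the challenged library (ratio 2.44, 1.51 to 3.92), and the PPO cluster 5 had 1.92 and 3.72 CPM (1.94, 1.05 to 3.77).

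Other clusters differed in the opposite direction. In the SPARC cluster 23, EPX SPEXI_LOCUS11237 held 11 UMIs in 169 naive cells (7.40 CPM, 3.69 to 13.2) and 0 in 144 challenged cells. The naive level was 3.56 times the floor of 3 challenged UMIs, and the counting interval of the ratio reached up to 0.411. In cluster 21, which held the genes for unnamed proteins, it had 6 and 4 UMIs, a ratio of 0.228 (0.0473 to 0.960). Of 11 clusters with at least 10 UMIs, 6 had a ratio above 1 and 5 below 1, and the interval lay above 1 in 3 and below 1 in 2.

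EPX SPEXI_LOCUS11236, the other EET locus, was less concentrated in 1 cluster. Its leading cluster took 15.3% of its UMIs in the naive and 20.6% in the challenged library, against 28.1% and 57.4% for SPEXI_LOCUS11237. In the naive library cluster 6 held the most UMIs of both loci. The highest level of SPEXI_LOCUS11236 lay in cluster 17, with 14 UMIs in 455 naive cells (27.3 CPM, 14.9 to 45.8) and 2 UMIs in 54 challenged cells. In cluster 24 it had 19 UMIs in 255 naive cells (12.4 CPM, 7.45 to 19.3) and 0 in 34 challenged cells, where the floor of 3 UMIs is 16.9 CPM and no difference was detectable. In the PPO cluster 5 it was nearly absent, with 2 UMIs in 763 naive cells and 2 UMIs in 901 challenged cells, and the SPARC cluster 7 held 1 UMI in each library.

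Of 8 clusters with at least 10 UMIs of EPX SPEXI_LOCUS11236, 5 had a ratio below 1 and 3 above 1, and the interval lay below 1 in 3 and above 1 in none. The highest ratio was 1.75 (0.925 to 3.32) in cluster 2, with 22 UMIs in each library. In cluster 6 it had 30 UMIs in the naive (2.37 CPM, 1.60 to 3.38) and 16 UMIs in the challenged library (0.860 CPM, 0.492 to 1.40), and the ratio was 0.363 (0.185 to 0.687). In clusters 10 and 21, both high in the genes for unnamed proteins, the ratios were 0.330 (0.0951 to 0.943) and 0.342 (0.151 to 0.773). Thus in cluster 6 the 2 EPX loci differed in opposite directions, and SPEXI_LOCUS11237 made up 72.5% of the EPX UMIs there in the naive library and 94.3% in the challenged library. The cluster with most of its UMIs was cluster 6 in the naive library (15.3%) and cluster 2 in the challenged library (20.6%).

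**Figure D3:**
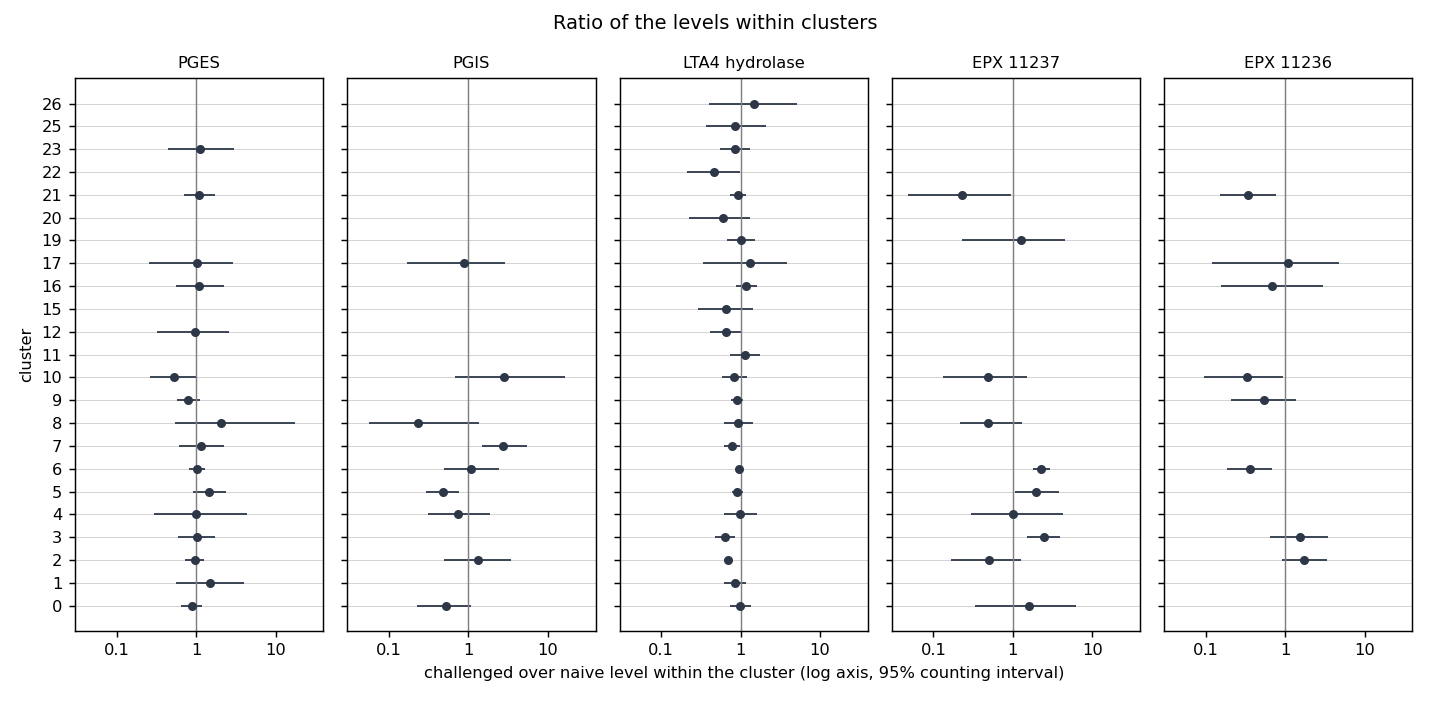
Ratio of the challenged to the naive level (log axis) of each gene within clusters that held at least 10 of its UMIs and UMIs in both libraries, with exact 95% intervals. EPX SPEXI_LOCUS11237 lies at 2.28 in cluster 6, PGIS at 2.76 in cluster 7 and 0.477 in cluster 5, and all PGES intervals include 1.

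**Figure D4:**
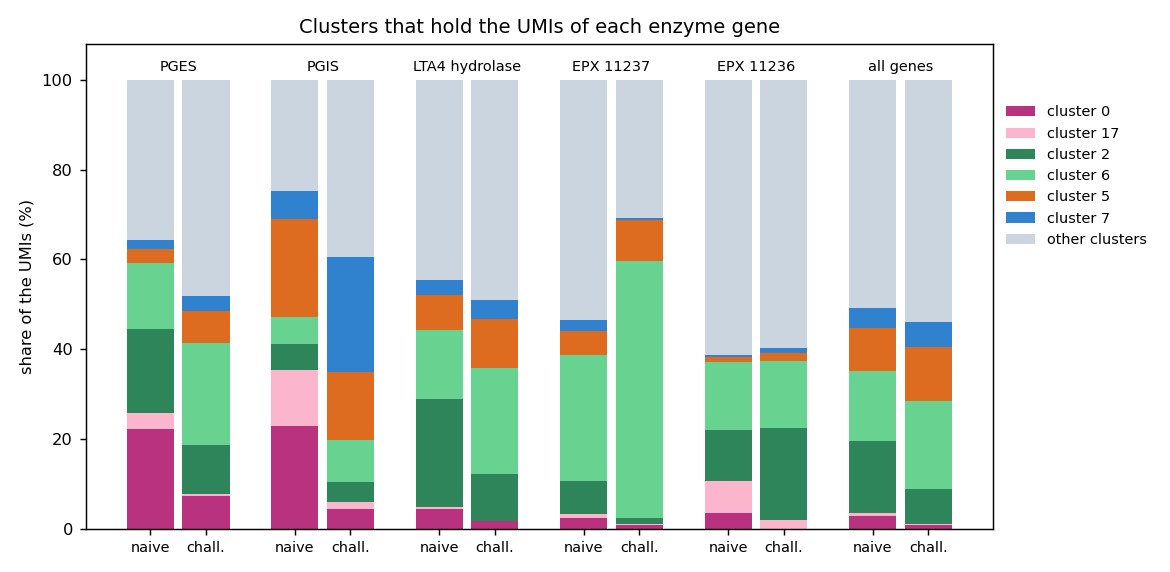
Share of the UMIs of each gene held by clusters in the naive and the challenged library (percent of the UMIs of that gene), beside the same for all genes. Cluster 6 holds 57.4% of the EPX SPEXI_LOCUS11237 UMIs in the challenged library and 28.1% in the naive library.

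The order of clusters was kept between the libraries for some steps more than for others. Over the 23 shared clusters the Spearman correlation of the naive and challenged levels was 0.79 for PGES, 0.73 for the LTA4 hydrolase, 0.54 for EPX SPEXI_LOCUS11236, 0.48 for PGIS and 0.10 for EPX SPEXI_LOCUS11237. These are descriptions over clusters that share their library and differ in depth. Across the 54 combinations of cluster and library, the pair with the most similar levels was PGES and the LTA4 hydrolase, with a Pearson correlation of 0.47 on the log2(CPM + 1) scale and a Spearman correlation of 0.59.

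Among 6848 other genes, the gene most like PGES in its levels over these 54 points was SPEXI_LOCUS2227 (Pearson correlation 0.88), followed by SPEXI_LOCUS10878 (0.87). The genes most like PGIS were SPEXI_LOCUS5317 (0.72) and SPEXI_LOCUS3522 (0.68), and those most like the LTA4 hydrolase were SPEXI_LOCUS11224 (0.80) and SPEXI_LOCUS15 (0.78). EPX SPEXI_LOCUS11237 had no gene as close, with 0.49 for SPEXI_LOCUS10052 and 0.46 for SPEXI_LOCUS8189. For EPX SPEXI_LOCUS11236 the closest were SPEXI_LOCUS5315 (0.65) and SPEXI_LOCUS3033 (0.62). None of these loci is paired with a gene name in the tables used here.

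Whether different steps were held by the same cells was examined by the overlap of positive cells. In the naive library, 276 cells held both PGES and the LTA4 hydrolase, which was 35.4% (32.1 to 38.9) of the PGES cells and 9.56% (8.51 to 10.7) of the LTA4 hydrolase cells, against 19.5% and 5.25% among all cells. In the challenged library 336 cells held both, 45.5% (41.8 to 49.1) of the PGES cells and 13.0% (11.7 to 14.3) of the LTA4 hydrolase cells, against 20.7% and 5.90% among all cells. The overlap was therefore above the share in all cells, but the cells with both were deep, with medians of 15680 and 22545 UMIs.

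At 1000 UMIs per cell this excess was no longer seen. The LTA4 hydrolase was then found in 11 of 183 naive PGES cells (6.01%, 3.04 to 10.5) against 5.01% of all cells, and in 3 of 93 challenged PGES cells (3.23%, 0.670 to 9.14) against 3.65% of all cells. With so few cells, an overlap above or below that of all cells was not detectable. Within cluster 6, where depth was more alike, 67.3% (57.7 to 75.9) of the naive PGES cells held the LTA4 hydrolase against 54.9% of all its cells, and 80.1% (73.0 to 86.1) of the challenged PGES cells against 66.5%.

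Within cluster 2 the naive share was 62.3% (53.7 to 70.4) of PGES cells against 42.8% of all cells, and the challenged share 54.7% (42.7 to 66.2) against 36.4%. In cluster 0 it was 8.62% (4.91 to 13.8) against 7.43% in the naive and 18.2% (9.08 to 30.9) against 8.72% in the challenged library. In the PPO cluster 5 it was 50% (29.9 to 70.1) against 29.5% in the naive and 36.4% (23.8 to 50.4) against 32.3% in the challenged library. The cells of a cluster still differ in depth, and the part of depth in these shares was not tested.

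Before thinning, the EET loci overlapped with the leukotriene step in a like manner, where 19.5% of all naive and 20.7% of all challenged cells held the hydrolase. Of the cells with EPX SPEXI_LOCUS11237, 69 of 217 naive cells (31.8%, 25.7 to 38.4) and 130 of 302 challenged cells (43.0%, 37.4 to 48.8) held the LTA4 hydrolase. In cluster 6, however, the shares were 46.9% (32.5 to 61.7) in the naive and 63.9% (55.1 to 72.1) in the challenged library, against 54.9% and 66.5% of all cells there, so no excess was seen within this cluster. In cluster 2 of the naive library the share was above that of all cells, with 12 of 16 cells (75%, 47.6 to 92.7) against 42.8%. In cluster 24 of the naive library it was 53.3% (26.6 to 78.7) against 29.4%, within counting error. Of the cells with EPX SPEXI_LOCUS11236, 73 of 184 naive cells (39.7%, 32.6 to 47.1) and 51 of 104 challenged cells (49.0%, 39.1 to 59.0) held the hydrolase. In cluster 6 these shares were 60.7% (40.6 to 78.5) and 87.5% (61.7 to 98.4), within counting error of all cells there. They were higher in challenged cluster 2 (61.9%, 38.4 to 81.9, against 36.4%) and naive cluster 24 (55.6%, 30.8 to 78.5, against 29.4%). In naive cluster 2, however, the share was 8 of 21 cells (38.1%, 18.1 to 61.6) against 42.8%, so no excess was seen there. At 1000 UMIs per cell, 0 of 30 naive and 2 of 37 challenged SPEXI_LOCUS11237 cells held the hydrolase. For SPEXI_LOCUS11236 it was 1 of 35 and 1 of 15, so against 5.01% and 3.65% of all cells no excess was detectable.

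Few cells held both prostaglandin synthases or both EPX loci. PGES and PGIS were found together in 13 naive and 16 challenged cells, which was 6.84% (3.69 to 11.4) and 8.65% (5.02 to 13.7) of the PGIS cells, with PGES in 5.25% and 5.90% of all cells. The 2 EPX loci were found together in 12 naive and 4 challenged cells, 5.53% (2.89 to 9.46) and 1.32% (0.361 to 3.36) of the SPEXI_LOCUS11237 cells, with SPEXI_LOCUS11236 in 1.24% and 0.830% of all cells. The naive share was thus above that of all cells before thinning, in cells with a median of 13672 UMIs. PGES and EPX SPEXI_LOCUS11237 were found together in 18 naive and 45 challenged cells. These were 2.31% (1.38 to 3.63) and 6.09% (4.48 to 8.06) of the PGES cells, with SPEXI_LOCUS11237 in 1.46% and 2.41% of all cells. Of the 45 challenged cells, 35 lay in cluster 6. There they were 22.4% (16.2 to 29.8) of the PGES cells, against 18.9% of all its cells with SPEXI_LOCUS11237, which is within counting error. In naive cluster 6 the share was 5.45% (2.03 to 11.5) against 7.25%.

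**Figure D5:**
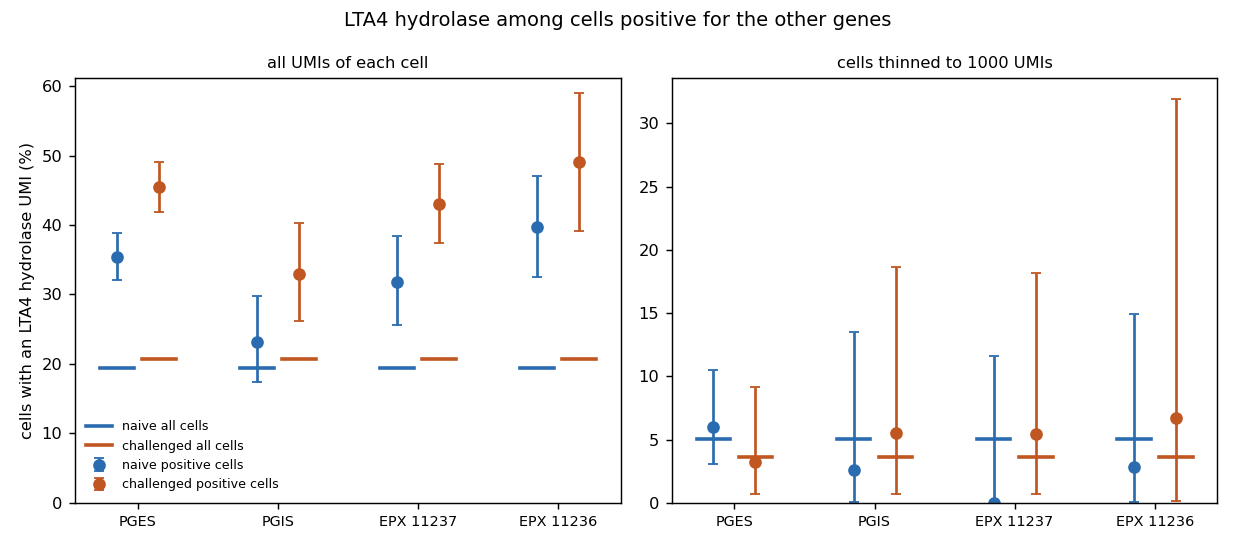
Share of cells with a UMI of the LTA4 hydrolase (percent) among cells positive for each other gene (points, with exact 95% intervals) and among all cells (bars), before thinning on the left and at 1000 UMIs per cell on the right. Before thinning it was held by 35.4% of naive and 45.5% of challenged PGES cells, against 19.5% and 20.7% of all cells.

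With the 2 EPX loci taken as 1 step, 3763 naive cells (25.4%, 24.7 to 26.1) and 3313 challenged cells (26.5%, 25.7 to 27.2) held a UMI of at least 1 of the 4 steps. Of these, 456 naive (12.1%, 11.1 to 13.2) and 549 challenged cells (16.6%, 15.3 to 17.9) held 2 or more steps, 26 and 50 held 3 or more, and 0 and 2 held all 4. Cells with 2 or more steps had medians of 14788 and 21250 UMIs against 6914 and 9486 for cells with 1 step. Cluster 6 held 24.8% of them in the naive and 37.9% in the challenged library, while it made up 4.56% and 5.62% of cells.

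At 1000 UMIs per cell, 882 of 12157 naive cells (7.26%, 6.80 to 7.73) and 590 of 11458 challenged cells (5.15%, 4.75 to 5.57) held any step. Only 14 of the 882 (1.59%, 0.870 to 2.65) and 8 of the 590 (1.36%, 0.587 to 2.65) held 2 or more steps. The intervals of these shares overlap, and the difference between the libraries seen before thinning was not detectable at equal depth.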

How the data were processed

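Single-cell libraries (10x 3′) of naive and challenged hemocytes were sequenced, 1 per condition. The authors assigned reads to genes with Cell Ranger, version 7.2.0 per the file headers, while the study's text names an earlier version. They deposited the counts of UMIs for every gene and called cell as raw values. The genome build and annotation were not given in the sources used here. No gene names are in the matrices, and those used come from the study's pathway diagram and tables. The members and marker lists were chosen with earlier results of these data known.

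Cells with 200 to 6000 genes were kept. The mitochondrial filter of the study was not applied. Doublets were called per library with Scrublet in scanpy 1.11.5 and kept in the main results. The pooled cells were clustered in Seurat 5.3.0 (R 4.3.3), with 5000 variable genes, 30 components, 20 neighbours and a resolution of 0.8. The members and 99 genes that differed between the libraries over clusters, by a median log2 difference beyond 1 in either direction, were left out of the variable genes. A cluster was given a marker group where all markers of the group were at least 2-fold above their pooled level with at least 20 UMIs each, a rule set after the marker levels were seen. Clusters whose library had over 3 times their median depth, and that held no marker of their own among their top 10 genes, stayed unnamed.

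Levels are UMIs summed over cells and scaled to 1000000 (CPM), with exact Poisson intervals. Ratios have exact conditional intervals from the binomial distribution, and Clopper-Pearson intervals (exact) stand beside shares of cells. Each interval is at 95% and covers the counting error alone. Since the conditions have 1 library each, neither p-values nor standard errors were computed. A fold against 0 UMIs was taken at a floor of 3 UMIs. To compare shares and overlaps at equal depth, each cell was thinned once at random to 1000 UMIs, which left out 2683 naive and 1066 challenged cells. Likeness between genes is the Pearson correlation of log2(CPM + 1) over cluster and library, for genes with at least 500 UMIs, and for each member the 2 closest genes are named.

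The alternatives covered the cell filter, doublets, the scaling of levels (including the TMM factor of edgeR 4.0.16), cluster makeup, depth, the limit of detection and the clustering. Another 5 alternatives were chosen after seeing the data, namely without barcodes shared by the libraries, without cluster 6, without clusters 0 and 17, with the members kept among the variable genes, and with the mean over all draws. The computation of levels, ratios and intervals was tested on simulated data. The remaining steps ran in Python 3.11.15 with scipy 1.17.1, matplotlib 3.10.9, pandas 2.3.3 and numpy 2.4.6.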

Additional observations from a re-analysis of the deposited data

Results flagged for a closer look

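In 2 pairs of clusters the libraries differed in opposite directions for the same gene, and the difference between the clusters was not tested, since each condition has 1 library. PGIS had a challenged over naive ratio of 2.76 in the SPARC cluster 7, and a ratio of 0.477 in the PPO cluster 5. EPX SPEXI_LOCUS11237 had a ratio of 2.28 in cluster 6, while in the SPARC cluster 23 its naive level was 3.56 times the floor of 3 challenged UMIs, of which 0 were found.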

How the results depend on the processing

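Values are log2 ratios of the challenged over the naive level unless stated. For PGES the ratio was -0.27 as reported, -0.87 with the same weight for each cell, -0.088 with the same cluster makeup in both libraries, and -0.00060 without clusters 0 and 17. For PGIS it was -0.24, -0.73 with the same weight for each cell and 0.27 without clusters 0 and 17. For the LTA4 hydrolase it was -0.34, -0.47 with the same weight, -0.24 with the TMM factor and -0.20 with the same makeup. For EPX SPEXI_LOCUS11237 it was 0.50, 0.066 with the same weight, 0.19 with the same makeup and -0.18 without cluster 6, where the direction reversed. For EPX SPEXI_LOCUS11236 it was -1.09 and -0.31 with the same makeup. The log2 ratio of the shares of positive cells, -0.89 for PGES and -0.46 for the LTA4 hydrolase, reversed without thinning (0.17 and 0.087) and with at least 2 UMIs (0.36 and 0.20), and for PGES it was -0.21 at 2000 UMIs. The settings without thinning do not hold depth equal. Cells with 2 or more steps, of those with any, made up 12.1% of naive and 16.6% of challenged cells without thinning, and 2.96% of naive cells at 2000 UMIs. With at least 20 UMIs, 21.1% of genes were lower by over 1.5-fold. The cause of the other shifts was not tested.

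Of the 60 comparisons of the share held by the leading cluster, 50 moved by less than counting error, as did 49 of the 60 comparisons of overlaps. The settings that left out clusters or shared barcodes, kept the members for clustering or averaged over draws were chosen after seeing the data. Without the cells of the 44 shared barcodes, each of the 5 log2 ratios moved by less than its counting error. Depth limits the ratios within clusters, where PGIS reached 10 UMIs in 9 clusters and the EPX loci in 11 and 8. No paired analysis was possible because each condition has 1 library and no test was run.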
